A study of Homo sapiens and Mus musculus with 13 samples.

Results

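The matrix metalloproteinases (MMP), the ADAMTS proteases and their tissue inhibitors (TIMP) were followed in mouse mammary tumors with reduced Trim11 and in the breast cancer line MDA-MB-231 after guides against TRIM11 or KDM5C. Members were taken by symbol alone: MMP or ADAMTS followed by digits, or TIMP followed by 1 digit, with only the first letter capital in the mouse table. The rule found 45 of 24523 human symbols (22 MMP, 19 ADAMTS and 4 TIMP) and 44 of 55228 mouse symbols (21 Mmp, 19 Adamts and 4 Timp), 89 genes in all of 79751. It left out 11 human and 7 mouse symbols that start with the same letters, among them the ADAMTS-like genes, MMP23A, antisense transcripts and the mouse genes Mmp1a and Mmp1b. The largest difference among the members did not follow a targeted gene: MMP1 was at 17.8 to 43.2 FPKM in the 3 knockdown lines numbered 1 and at 0.0853 to 0.797 FPKM in the 3 numbered 2.

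MMPs are zinc-dependent proteases that are made as inactive proenzymes and cut collagens, gelatins, laminins and other parts of the extracellular matrix. Collagenases such as MMP1 open fibrillar collagen, gelatinases cut the denatured chains, and membrane-anchored MMPs such as MMP14 act at the cell surface, where MMP14 also activates proMMP2. ADAMTS proteases carry thrombospondin motifs and cut proteoglycans, procollagens or von Willebrand factor. TIMPs bind the active site of these proteases, and TIMP3 stands out among them because it is held in the matrix and also blocks ADAMTS and ADAM enzymes. In breast tumors much of the protease and inhibitor message comes from stromal cells as well as from the cancer cells.

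Polyadenylated RNA was sequenced from 7 human and 6 mouse samples, 13 in all. MDA-MB-231 is an established line of triple-negative breast cancer, here carrying Cas9 with guide RNAs delivered by lentivirus and kept as puromycin-selected populations. The Control received a GFP guide, TRIM11-KD1 and TRIM11-KD2 received TRIM11 guides 1 and 2, and KDM5C-KD1 and KDM5C-KD2 received KDM5C guides 1 and 2. DKD1 combined TRIM11 guide 1 with KDM5C guide 2, and DKD2 combined TRIM11 guide 2 with KDM5C guide 2, so each group has 2 lines made with different guides and the Control has 1. The tumors came from 3-month-old female C57BL/6N × FVB/N hybrid mice with the MMTV-PyVT transgene, in which the MMTV promoter drives polyoma middle T antigen in mammary epithelium. Of these tumors 3 were Trim11+/+ and 3 were Trim11+/-, the latter with exons 2 to 6 of 1 Trim11 allele deleted in the whole animal. The question was which genes change when TRIM11, a ubiquitin ligase, or KDM5C, a demethylase of histone H3 lysine 4, is reduced.

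Both tables hold FPKM, fragments per transcript length, scaled to the mapped fragments of each library, so levels can be compared between genes within a table. In the tumors the FPKM multiplied by exon length gave whole reads for 98.8% of 28790 genes, to within 0.01 of a read, with 8793199 to 11117125 reads per tumor; the depth of the cell lines is unknown. TRIM11 was at 12.6 FPKM in the Control, 10.6 in TRIM11-KD2 and 9.38 in DKD2, whereas the libraries that the labels call TRIM11-KD1 and DKD1 had 13.4 and 16.1, so the message was not lower there. KDM5C was at 30.3 FPKM in the Control and at 18.8 to 22.7 in the 4 lines with a KDM5C guide. Trim11 was at 35.8 to 39.2 FPKM in Trim11+/+ and at 22.8 to 24.0 in Trim11+/- tumors. The estrogen receptor gene ESR1 was below 0.1 FPKM in all 7 cell libraries. Luminal epithelial markers, ESR1 among them, summed to 938 to 1389 FPKM in the cell libraries and to 2501 FPKM or more in every tumor. Skeletal muscle markers summed to between 1.78 and 278 FPKM in the tumors without separating the genotypes.

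In the cell lines 19 of the 45 members had a mean of at least 0.5 FPKM, the level required for testing, 17 lay below it and 9 were listed at 0 in every library. TIMP1, TIMP2, MMP14 and TIMP3 were the most abundant, with means of 291, 254, 121 and 89.2 FPKM. MMP1 (15.9), ADAMTS15 (15.01), ADAMTS12 (10.6), MMP24 (8.02) and MMP15 (8.02) followed. The gelatinase genes were near the bottom of the range, MMP2 at 0 to 0.133 FPKM and MMP9 at 0.0765 to 0.288 FPKM. Genes listed at 0 throughout were MMP8, MMP12, MMP20, MMP26, MMP27, ADAMTS5, ADAMTS10, ADAMTS18 and ADAMTS19. Inhibitors made up most of the sum: the 4 TIMPs summed to 467 to 948 FPKM in each library, the MMPs to 94.3 to 220.4 FPKM and the ADAMTS genes to 24.7 to 54.0 FPKM.

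In the tumors 30 of the 44 members reached the mean of 0.5 FPKM, and Mmp20 alone was listed at 0 in all 6. Timp2 (65.7 FPKM), Mmp15 (35.3), Mmp2 (28.4), Timp1 (18.8), Mmp11 (18.5), Mmp14 (16.1), Timp3 (12.1), Adamts10 (9.57) and Mmp3 (7.92) were the 9 genes with a mean of at least 5 FPKM. The Mmp genes summed to 88.5 to 142 FPKM and the Timp genes to 76.7 to 105 FPKM, with the Timp sum above the Mmp sum in Trim11+/- tumor 3 and below it in the other 5. Of 43 symbols present in both tables, 15 passed the level of 0.5 FPKM in both, 14 in the tumors alone, 3 in the cell lines alone and 11 in neither. The 14 included the gelatinase Mmp2, the stromelysin Mmp3, the metalloelastase Mmp12, the collagenase Mmp13 and the aggrecanases Adamts4 and Adamts5, whereas the 3 were ADAMTS6, ADAMTS16 and TIMP4. The tables were normalized separately, and a tumor holds stromal cells that the cell line lacks, so levels were not tested between them.

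**Figure D1:**
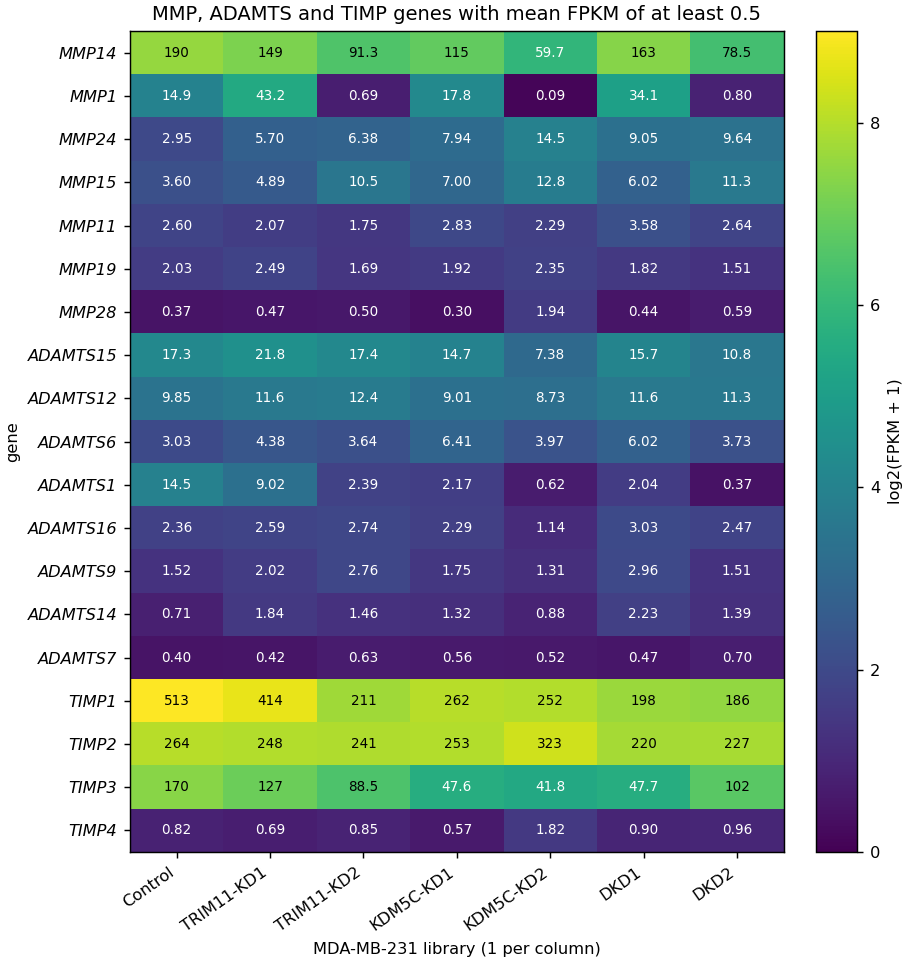
Heat map of log2(FPKM + 1) for the 19 human members with a mean of at least 0.5 FPKM (rows) in the 7 MDA-MB-231 libraries (columns), with the FPKM printed in each cell. MMP1 alternates between high and low from line 1 to line 2 of each knockdown, while TIMP2 stays between 220 and 323 FPKM.

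The Control was 1 library with no replicate of its own, so against it a member was counted, without a test, when both lines of a knockdown lay at least 1.5 times above or below it. By this count 2 members were higher and 1 lower in TRIM11-KD, 2 higher and 4 lower in KDM5C-KD, and 3 higher and 3 lower in DKD, of 19. Among all 12636 genes the share was 3.11% higher and 2.58% lower in TRIM11-KD, 5.1% and 3.97% in KDM5C-KD, and 5.57% and 4.87% in DKD. Because the same Control enters every ratio, the 3 knockdowns are not independent of each other.

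Of the inhibitors, TIMP1 and TIMP3 were below the Control in all 6 knockdown lines and TIMP2 was nearly level. TIMP1, a secreted inhibitor of most soluble MMPs, was at 513 FPKM in the Control, 414 and 211 in the TRIM11-KD lines, 262 and 252 in the KDM5C-KD lines, and 198 and 186 in the DKD lines. The Control was thus 1.96 and 2.03 times above the KDM5C-KD lines and 2.59 and 2.76 times above the DKD lines, and both groups met the rule. TIMP3, the matrix-bound inhibitor, was at 170.2 FPKM in the Control, 127 and 88.5 in the TRIM11-KD lines, 47.6 and 41.8 in the KDM5C-KD lines, and 47.7 and 102 in DKD1 and DKD2. The Control exceeded the KDM5C-KD lines 3.57 and 4.08 times, and the DKD lines 3.57 and 1.67 times. TIMP2, which takes part with MMP14 in the activation of proMMP2, ranged from 220.0 FPKM in DKD1 to 323 FPKM in KDM5C-KD2 around a Control of 264. TIMP4 stayed between 0.568 and 1.82 FPKM. TIMP1 and TIMP3 overlap synapsin genes on the other strand, which the library preparation could not separate, but SYN1 and SYN3 were at most at 0.178 and 0.0829 FPKM in these cells.

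The membrane-anchored MMPs moved in different directions. MMP24 was at 2.95 FPKM in the Control, 5.70 and 6.38 in the TRIM11-KD lines, 7.94 and 14.5 in the KDM5C-KD lines and 9.05 and 9.64 in the DKD lines, so all 6 lines lay above the Control, by 1.94 to 4.92 times. MMP15 was at 3.60 FPKM in the Control, 4.89 and 10.5 in the TRIM11-KD lines, 6.999 and 12.8 in the KDM5C-KD lines, and 6.02 and 11.3 in the DKD lines. All 6 were again above the Control, and KDM5C-KD and DKD met the rule. MMP14, the main activator of proMMP2, was at 190.2 FPKM in the Control, 149 and 91.3 in the TRIM11-KD lines, 115 and 59.7 in the KDM5C-KD lines, and 163 and 78.5 in the DKD lines. All 6 lines were below the Control and KDM5C-KD alone met the rule, with the Control 1.66 and 3.19 times higher.

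Among the ADAMTS genes that passed the level for testing, ADAMTS1 had the widest range as a ratio of its highest to its lowest level; it is a protease of the proteoglycans aggrecan and versican. It was at 14.5 FPKM in the Control, 9.02 and 2.39 in the TRIM11-KD lines, 2.17 and 0.620 in the KDM5C-KD lines, and 2.04 and 0.369 in the DKD lines. Every knockdown line lay below the Control, by 1.61 times in TRIM11-KD1 and by 39.4 times in DKD2, and the 3 knockdowns met the rule. ADAMTS14, a procollagen N-proteinase, was at 0.715 FPKM in the Control and at 1.84 and 1.46 in the TRIM11-KD lines and 2.23 and 1.39 in the DKD lines, which met the rule upward. It was at 1.32 and 0.876 FPKM in the KDM5C-KD lines, which did not. ADAMTS12, a protease of cartilage oligomeric matrix protein, stayed between 8.73 and 12.4 FPKM around a Control of 9.85.

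**Figure D2:**
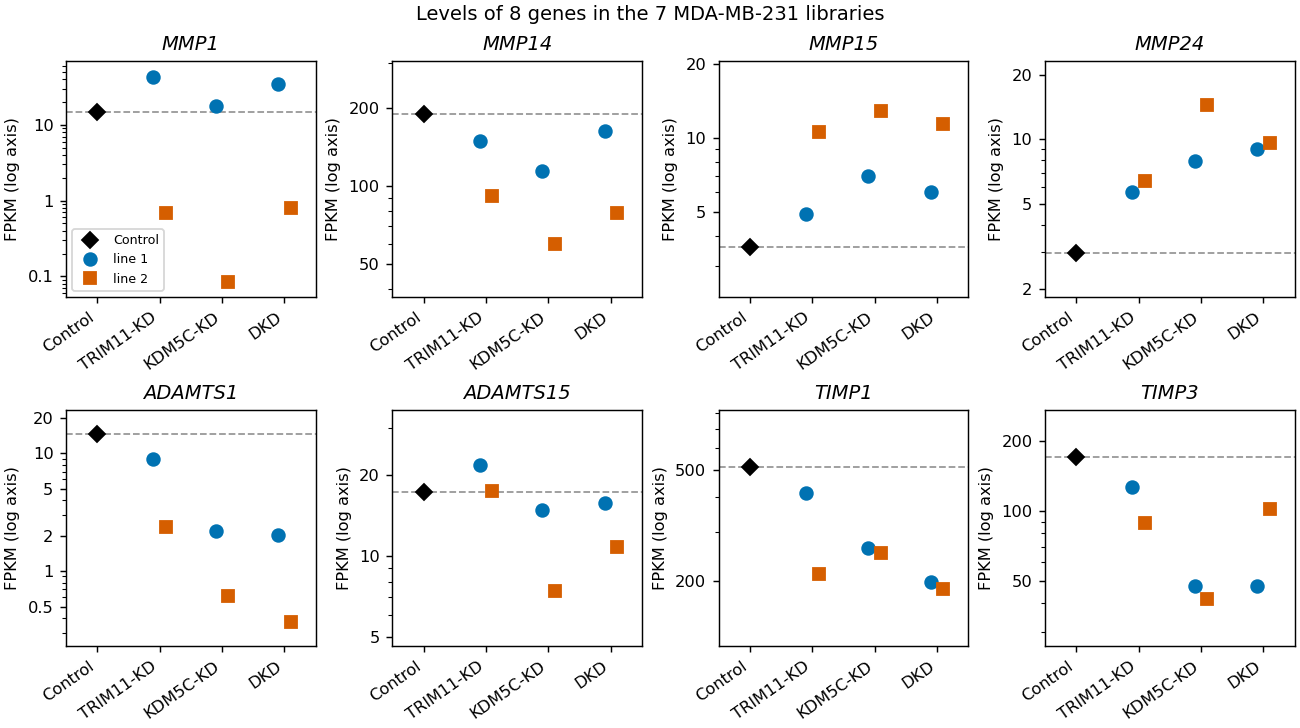
FPKM (log axes) of 8 members in the 7 MDA-MB-231 libraries, with the Control as a diamond and a dashed line, lines numbered 1 as circles and lines numbered 2 as squares. MMP15 and MMP24 lie above the Control and MMP14, ADAMTS1, TIMP1 and TIMP3 below it in all 6 knockdown lines, and the squares of MMP1, MMP14 and MMP15 are separate from the circles.

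A single line could decide these counts. With line 1 of TRIM11-KD left out, 5 members lay above and 5 below the Control, and with line 2 left out the counts were 3 and 1. The shares of all genes for a single line are not given here. A fit with limma (moderated linear models) took the Control as a group of 1, assumed to vary like the knockdown lines. With 1 library the Control shows no spread of its own, so calls from this fit cannot test differences from the Control.

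Pairs of knockdown groups were then tested with limma on log2(FPKM + 1), where a call required a 1.5-fold ratio of mean FPKM and an unadjusted p under 0.05. With 2 lines per group few members passed, and 0 members, like 0% of all genes in each of the 3 comparisons, had an adjusted p (Benjamini-Hochberg over 12636 genes) under 0.05. Between KDM5C-KD and DKD 0 of 19 members were called, where 6.74% of all genes were; 2 members, ADAMTS12 and TIMP2, had an unadjusted p under 0.05, as 11.7% of all genes did, and both missed the 1.5-fold ratio. Between TRIM11-KD and DKD 1 member was called, against 3.29% of genes. It was MMP11, stromelysin-3, at 2.07 and 1.75 FPKM in TRIM11-KD and 3.58 and 2.64 in DKD (log2 difference -0.49, SE 0.19, limma adjusted p = 0.707). Because TRIM11-KD1 shares TRIM11 guide 1 with DKD1, and TRIM11-KD2 shares guide 2 with DKD2, the fit was repeated with the line number as a block. ADAMTS1 (log2 difference 1.51) and TIMP1 (0.62) were then called higher and MMP11 (-0.49) and MMP24 (-0.56) lower in TRIM11-KD, with limma adjusted p of 0.372 to 0.40. The share of all genes called with the block is not given here, so these calls cannot be read as particular to the members. Without the block the call of MMP11 was lost without either TRIM11-KD line, KDM5C-KD1 or DKD1, with differences between -0.57 and -0.32.

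Between KDM5C-KD and TRIM11-KD 3 members were called, against 5.37% of genes. TIMP3 was lower in KDM5C-KD (log2 difference -1.23, SE 0.36, limma adjusted p = 0.494). ADAMTS15, a versican-cleaving protease, was at 14.7 and 7.38 FPKM in the KDM5C-KD lines and at 21.8 and 17.4 in the TRIM11-KD lines, without overlap (log2 difference -0.83, SE 0.33, limma adjusted p = 0.505). MMP24 was higher in KDM5C-KD, again without overlap (log2 difference 0.74, SE 0.26, limma adjusted p = 0.494). All 3 calls were lost without TRIM11-KD1, where the differences were -0.97 for TIMP3, -0.68 for ADAMTS15 and 0.67 for MMP24, and without KDM5C-KD2, where they were -1.14, -0.38 and 0.35. Without TRIM11-KD2 TIMP3 was still called, while ADAMTS15 (-0.99) and MMP24 (0.81) were not. In these comparisons groups of 2 and 2 did not overlap for 43.3% of all genes between KDM5C-KD and DKD, 43.5% between KDM5C-KD and TRIM11-KD and 41% between TRIM11-KD and DKD. Among the members this was so for 7, 10 and 7 of 19, in the same order.

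The plot of single lines showed a second division, between the lines numbered 1 and those numbered 2, and a comparison along it was added after these values had been seen. It was fitted over the 6 knockdown lines with the knockdown and the number as terms. The number stands for different guides: TRIM11 guide 1 or 2 in TRIM11-KD and DKD, and KDM5C guide 1 or 2 in KDM5C-KD, while both DKD lines carry KDM5C guide 2. Whether the lines of a number also shared a day of infection or of culture is not stated in the sources used here, so guide and handling cannot be told apart. By the same call rule 1 member was higher and 3 were lower in the lines numbered 2, among 2.43% and 3.65% of all 12636 genes.

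MMP1, interstitial collagenase, had the smallest p of all genes tested in this comparison. Because the comparison was added after the MMP1 values had been seen, this rank and the p-values below are no independent support. It lies at 11:102660132-102668891 of GRCh37 on the minus strand, and its level was 43.2 FPKM in TRIM11-KD1, 17.8 in KDM5C-KD1 and 34.1 in DKD1. It was 0.690 FPKM in TRIM11-KD2, 0.0853 in KDM5C-KD2 and 0.797 in DKD2, and the Control, at 14.9 FPKM, stood below the 3 lines numbered 1. The means were 31.7 ± 12.9 FPKM (SD, n = 3 lines) and 0.524 ± 0.384 FPKM, and the groups did not overlap. The log2 difference was -4.37 (SE 0.15, limma adjusted p = 0.00472), and it was between -5.87 and -4.20 in 13 other settings, all of which kept the call. The adjusted p ranged up to 0.283, reached when genes of any level were tested, and was 0.0588 without the knockdown term. With KDM5C-KD1 or KDM5C-KD2 left out it was also above 0.05, with a log2 difference of -4.50 each time. Only 3 genes had an adjusted p under 0.05, MMP1 with CST1 and ANO2, 0.0237% of those tested. The exact permutation test over the 6 lines gave p = 0.1, the smallest that 3 against 3 allows. In the comparisons between knockdowns the spread of MMP1 between lines was so wide that the SE of its log2 difference was 2.17.

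The membrane-anchored MMP14 and MMP15 split by line number in opposite directions. For MMP14 the lines numbered 1 were at 115 to 163 FPKM and those numbered 2 at 59.7 to 91.3 FPKM (log2 difference -0.89, SE 0.092, limma adjusted p = 0.111). For MMP15 the lines numbered 1 were at 4.89 to 6.999 FPKM and those numbered 2 at 10.5 to 12.8 FPKM (log2 difference 0.86, SE 0.099, limma adjusted p = 0.111). Both calls held without any single line and without the knockdown term. ADAMTS1 was below its partner line in every knockdown, though the ranges of the lines overlapped, 2.04 to 9.02 FPKM against 0.369 to 2.39 FPKM (log2 difference -1.23, SE 0.16, limma adjusted p = 0.111). Its call was lost without the knockdown term. Groups of 3 and 3 did not overlap for 17.6% of all genes and for 5 of the 19 members, namely MMP1, MMP14, MMP15, ADAMTS6 and MMP28. Of the TIMPs 0 were called: TIMP1 had a log2 difference of -0.37 (SE 0.19), TIMP2 of 0.12 (SE 0.097), TIMP3 of 0.13 (SE 0.31) and TIMP4 of 0.34 (SE 0.20).

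**Figure D3:**
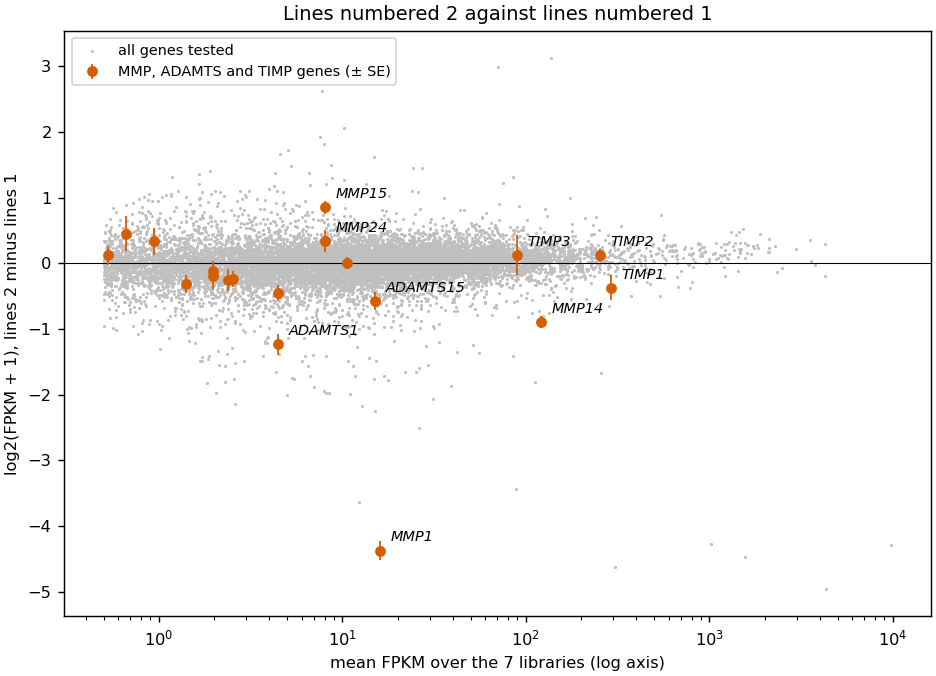
Difference in log2(FPKM + 1) between lines numbered 2 and lines numbered 1 (y axis) against mean FPKM over the 7 libraries (x axis, log), for all 12636 genes tested (grey) and the 19 members (orange, ± SE). MMP1 lies at -4.37, ADAMTS1 at -1.23 and MMP14 at -0.89, while MMP15 lies at 0.86.

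MMP1 belongs to a cluster of 9 members at 11:102391239-102826461 of GRCh37, 435 kb long. In the other 8 genes the levels were low or 0. MMP7, matrilysin, was listed at 0.257, 0.117 and 0.332 FPKM in the lines numbered 1 and at 0 in the other 4 libraries. MMP3, stromelysin-1, was likewise above 0 in the lines numbered 1 alone, at 0.0291 to 0.0755 FPKM, whereas MMP13 reached 0.359 FPKM in TRIM11-KD1 and MMP10 was above 0 in TRIM11-KD2 alone. Neither MMP7 nor MMP3 reached the level required for testing. Of the genes within 1 Mb of the cluster with a mean of at least 5 FPKM, YAP1, TMEM123 and DCUN1D5 had log2 differences of 0.06, -0.13 and -0.05 (SE 0.089 to 0.12). BIRC2 differed by -0.30 (SE 0.094). BIRC3, an inhibitor of apoptosis that is induced by NF-kB, was at 21.3, 10.99 and 21.2 FPKM in the lines numbered 1 and at 7.92, 1.37 and 3.496 in those numbered 2 (log2 difference -1.99, SE 0.22).

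Promoters of 4 members picked by hand are shown next. They are MMP14 and MMP15, called along the line number, and the inhibitors TIMP1 and TIMP3, below the Control. Promoters of the other members that divided by line number are not shown. RefSeq promoter windows (GRCh38.p14, another build than that of the files) were matched by symbol for 26 of the 45 human members, and the 250 bases before each start are printed. They were searched on both strands for the AP-1 letters TGANTCA and the GC box letters GGGCGG or CCGCCC. Capitals mark the GC boxes; overlapping matches, where present, run together. MMP14 (14:22836335-22836584, plus strand) and MMP15 (16:58025504-58025753, plus strand) are the pair with opposite directions.
MMP14: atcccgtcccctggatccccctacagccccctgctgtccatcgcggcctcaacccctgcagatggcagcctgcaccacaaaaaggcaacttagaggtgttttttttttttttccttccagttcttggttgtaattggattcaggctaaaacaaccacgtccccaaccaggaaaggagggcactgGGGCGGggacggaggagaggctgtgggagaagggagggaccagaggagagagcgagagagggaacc
MMP15: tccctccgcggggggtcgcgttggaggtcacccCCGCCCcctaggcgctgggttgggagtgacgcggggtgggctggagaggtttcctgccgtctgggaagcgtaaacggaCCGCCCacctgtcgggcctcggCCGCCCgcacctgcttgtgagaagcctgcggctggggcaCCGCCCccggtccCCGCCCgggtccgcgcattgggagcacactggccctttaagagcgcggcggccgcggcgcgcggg
TIMP1 (X:47582186-47582435, plus strand) and TIMP3 (22:32801455-32801704, plus strand) are the inhibitors below the Control.
TIMP1: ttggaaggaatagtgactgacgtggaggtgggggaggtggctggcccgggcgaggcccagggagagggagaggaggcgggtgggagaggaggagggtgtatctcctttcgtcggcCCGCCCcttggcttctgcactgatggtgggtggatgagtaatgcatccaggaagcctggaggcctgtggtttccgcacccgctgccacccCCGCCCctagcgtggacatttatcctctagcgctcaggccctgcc
TIMP3: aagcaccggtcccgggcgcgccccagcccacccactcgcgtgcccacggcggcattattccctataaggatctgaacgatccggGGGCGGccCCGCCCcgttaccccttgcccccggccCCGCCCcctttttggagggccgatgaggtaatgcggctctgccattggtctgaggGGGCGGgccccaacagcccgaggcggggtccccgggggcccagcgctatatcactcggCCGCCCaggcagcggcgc
The window of MMP14 held 1 GC box, those of MMP15 and TIMP3 held 5 each and that of TIMP1 held 2. At least 1 GC box was present in 42.6% of 35116 RefSeq promoter windows. None of the 4 held the AP-1 letters, which 6.57% of all windows did. Only exact matches were sought, so an AP-1 site with other letters would have been missed. GC content was 56.8% for MMP14, 74.8% for MMP15, 64.8% for TIMP1 and 72.4% for TIMP3, against a median of 58% over all windows.

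Genes that activate, inhibit or partner the proteases formed a list of 30, of which 21 were tested in the cell lines. Between KDM5C-KD and DKD 2 of them were higher and 6 lower, where 6.74% of all genes were called, with a median log2 difference of -0.42 beside -0.00083 for all genes. SPOCK1, the proteoglycan testican-1, was at 12.1 and 22.7 FPKM in KDM5C-KD and at 1.07 and 0.320 in DKD (log2 difference 3.41, SE 0.42, limma adjusted p = 0.337). TFPI2, an inhibitor of serine proteases such as plasmin, was at 14.9 and 5.85 FPKM in KDM5C-KD and at 59.0 and 26.6 in DKD (log2 difference -1.96, SE 0.49). Both were called in all 14 other settings. LCN2, the binding partner of MMP9, and PLAU, the urokinase that makes plasmin, were called lower in KDM5C-KD as well, with log2 differences of -1.66 and -1.13, and kept the call in 9 and 8 of 14 other settings. Both calls were lost without either TRIM11-KD line, without KDM5C-KD2 (-1.02 for LCN2 and -0.59 for PLAU) and without DKD1 (-0.76 and -0.58). Along the line number 4 of the 21 were lower in the lines numbered 2 and 0 were higher, beside 3.65% and 2.43% of all genes. Among them PLAT, tissue plasminogen activator, was at 152, 62.3 and 87.8 FPKM in the lines numbered 1 and at 55.5, 15.4 and 48.4 in those numbered 2 (log2 difference -1.41, SE 0.21). Of the 13 AP-1, ETS and related factors on the third list, 0 were called along the line number and 0 between KDM5C-KD and DKD. Between KDM5C-KD and TRIM11-KD, beside 5.37% of all genes called, the AP-1 gene JUND was called higher (log2 difference 0.62) and RUNX2 lower (-0.76). The limma adjusted p was 0.494 for each. Between TRIM11-KD and DKD, beside 3.29% of all genes called, the ETS gene ETV4 was called lower (-0.65, limma adjusted p = 0.707). The call of JUND was lost without TRIM11-KD1 or KDM5C-KD1, that of RUNX2 without either TRIM11-KD line or KDM5C-KD2 (-0.40), and that of ETV4 without TRIM11-KD1 (-0.42) or either DKD line.

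In the tumors 2 of the 30 members tested were called, both lower in Trim11+/-, beside 1.87% of 17328 genes called lower and 1.74% called higher. An unadjusted p under 0.05 was reached by 4 members and 6.94% of genes, and an adjusted p under 0.05 by 0 members and 0.00577% of genes. Mmp14 was at 20.1, 22.3 and 18.1 FPKM in Trim11+/+ tumors and at 16.2, 9.14 and 10.9 in Trim11+/- tumors, from 479 to 1354 reads. The means were 20.2 ± 2.11 FPKM (SD, n = 3 tumors) and 12.1 ± 3.70 FPKM without overlap (log2 difference -0.73, SE 0.20, limma adjusted p = 0.634). Timp3 was at 16.3, 16.1 and 13.4 FPKM in Trim11+/+ and at 9.45, 10.7 and 6.94 in Trim11+/- tumors, from 607 to 1450 reads. The means were 15.3 ± 1.64 FPKM (SD, n = 3 tumors) and 9.03 ± 1.92 FPKM, again without overlap (log2 difference -0.71, SE 0.17, limma adjusted p = 0.594). Exact permutation tests, two-sided, gave p = 0.1 for each gene, the smallest possible with 3 against 3 tumors. The call of Mmp14 was lost without Trim11+/- tumor 2 (log2 difference -0.56, limma adjusted p = 0.889), while that of Timp3 held without any single tumor. The first sits at 14:54431612-54445364 and the second at 10:86300372-86349506 of mm10, both on the plus strand. Syn3, on the opposite strand around Timp3, was at 4.54 to 5.57 FPKM in Trim11+/+ and 2.02 to 3.81 FPKM in Trim11+/- tumors, and reads from their shared stretch cannot be told apart.

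**Figure D4:**
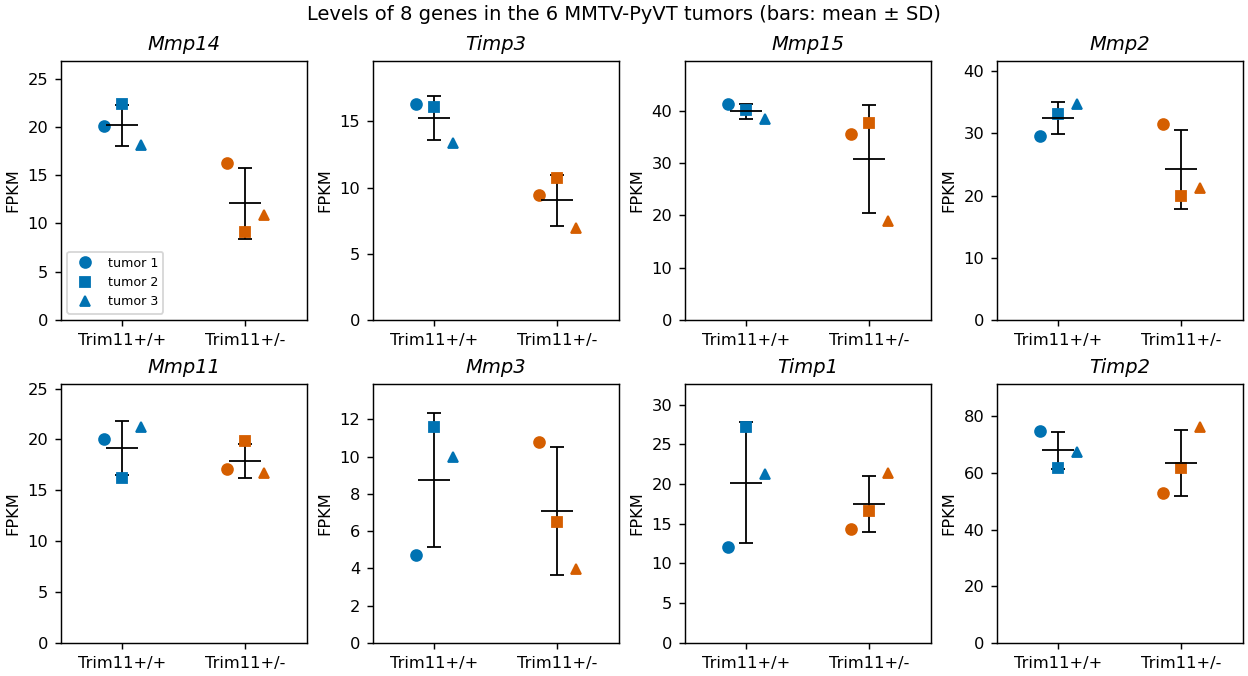
FPKM of 8 members in the 3 Trim11+/+ and 3 Trim11+/- tumors, with tumors 1, 2 and 3 of each genotype as circle, square and triangle and bars for mean ± SD. The genotypes are separate for Mmp14, Timp3 and Mmp15 and overlap for the other 5 genes.

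The genotypes also did not overlap for Mmp15, Mmp25 and Adamts7, so that 5 of 30 members were lower without overlap and 0 higher, where 6.78% of all genes were lower without overlap and 6.6% higher. These 3 were named after their values were seen. Mmp15, a membrane-anchored MMP, was at 41.2, 40.1 and 38.3 FPKM in Trim11+/+ and 35.6, 37.6 and 18.8 FPKM in Trim11+/- tumors (log2 difference -0.43, SE 0.25), with Trim11+/- tumor 3 far below the rest. Mmp25, a membrane-anchored MMP known from neutrophils, was at 0.612 to 0.846 FPKM and at 0.339 to 0.351 FPKM (log2 difference -0.37, SE 0.16), from 16 to 49 reads. Beside it, neutrophil markers summed to 18.5 to 37.3 FPKM in Trim11+/+ and 18.2 to 20.7 FPKM in Trim11+/- tumors, with 3 of 3 tested below 0 and S100a9 called lower; their part in the Mmp25 values was not tested. Adamts7, a protease of cartilage oligomeric matrix protein, was at 3.17 to 4.82 FPKM and at 2.43 to 2.99 FPKM (log2 difference -0.41, SE 0.16). It overlaps Tbc1d2b, on the other strand at 3.14 to 5.39 FPKM, as Mmp11 overlaps Chchd10, at 23.6 to 36.0 FPKM, and reads from the shared stretches cannot be told apart. None of the 3 met both parts of the call rule. On the 98.8% of genes with whole reads, voom and limma, added after the data had been seen, called 4 members lower, Adamts3 and Mmp25 beside Mmp14 and Timp3. The share of all genes called with voom is not given here, so this count cannot be read as particular to the members.

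Across the 30 members 24 had a log2 difference below 0, with a median of -0.17, beside 50.9% of all genes below 0 and a median of -0.0048. The gelatinase Mmp2 was at 29.6, 33.2 and 34.7 FPKM in Trim11+/+ and 31.5, 19.9 and 21.3 FPKM in Trim11+/- tumors, with 1 Trim11+/- tumor inside the Trim11+/+ range (log2 difference -0.43, SE 0.18). The stromelysins Mmp3 and Mmp11 differed by -0.28 (SE 0.40) and -0.09 (SE 0.13), less than their spread. Timp1 and Timp2 differed by -0.14 (SE 0.29) and -0.11 (SE 0.15). Adamts10, which acts on microfibrils, was at 8.16 to 9.74 FPKM in Trim11+/+ and 8.93 to 12.4 FPKM in Trim11+/- tumors (log2 difference 0.20, SE 0.14). Timp4 was under the level for testing, at 0 to 0.1001 FPKM in Trim11+/+ and 0.122 to 0.193 FPKM in Trim11+/- tumors. Mmp7 had the highest value in a single tumor, 2.70 FPKM from 31 reads in Trim11+/- tumor 3, against 0 to 0.514 FPKM in the other 5. By role, all 6 tested proteoglycan-cleaving Adamts genes and all 3 procollagen N-proteinases lay below 0 and 0 of them were called, and 4 of 5 membrane-anchored Mmps lay below 0 with Mmp14 called.

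**Figure D5:**
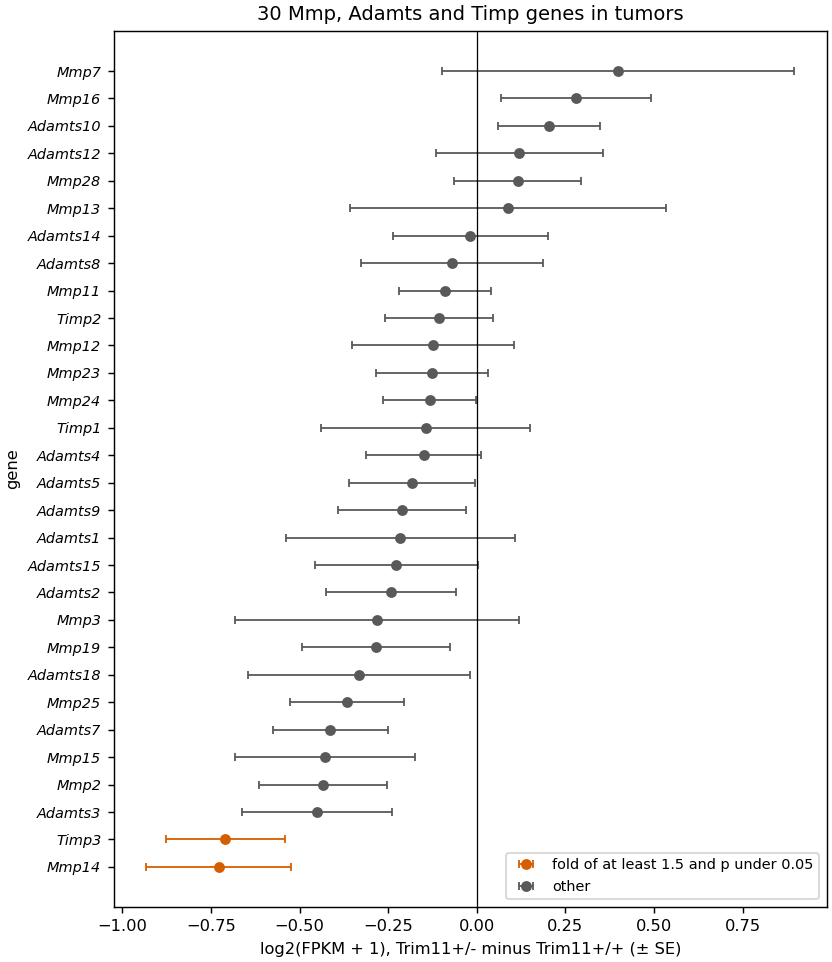
Difference in log2(FPKM + 1) between Trim11+/- and Trim11+/+ tumors (x axis, ± SE) for the 30 members with a mean of at least 0.5 FPKM (rows). Of these 24 lie below 0, and Mmp14 and Timp3, in orange, are the 2 that met the fold and p rule.

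Messages of some matrix proteins that these enzymes cut were lower in the same tumors. Of 19 tested substrates 5 were called lower and 0 higher in Trim11+/-, beside 1.87% and 1.74% of all genes. Of the 19, 17 lay below 0, beside 50.9% of all genes, and the median log2 difference was -0.48. Fn1, fibronectin, was at 14.5, 19.0 and 20.7 FPKM in Trim11+/+ and at 15.9, 9.14 and 8.52 in Trim11+/- tumors (log2 difference -0.68, SE 0.25, limma adjusted p = 0.693). The basement membrane collagen gene Col4a1 was at 39.3, 27.5 and 25.8 FPKM and at 20.1, 21.4 and 14.7 FPKM (log2 difference -0.68, SE 0.20). Col4a2 and Fbn1, fibrillin-1, differed by -0.65 (SE 0.25) and -0.63 (SE 0.16). The call of Fn1 was lost without any one of 4 tumors, with differences from -0.64 to -0.53, and that of Fbn1 held without each tumor. The calls of Col4a1 and Col4a2 were lost without Trim11+/+ tumor 1 (-0.50 and -0.41) and without Trim11+/- tumor 3 (-0.53 and -0.46), and that of Col4a2 also without Trim11+/- tumor 1 (-0.70). Of the 25 tested activators, inhibitors and partners 0 were called in either direction.

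Markers of other cell types were set beside these results, and their counts stand against 50.9% of all genes below 0 and 1.87% called lower. Myoepithelial markers summed to 108 to 219 FPKM in Trim11+/+ and to 44.8 to 82.6 FPKM in Trim11+/- tumors, without overlap; 7 of 7 lay below 0 and Krt5, Krt14, Krt17, Trp63 and Oxtr were called lower. Fibroblast markers summed to 84.3 to 156 FPKM and to 59.6 to 132 FPKM, which overlap, with 9 of 9 below 0 and 1 called. Pericyte and smooth muscle markers summed to 89.7 to 216 FPKM and to 74.8 to 87.7 FPKM, without overlap, with 6 of 6 below 0 and 0 called. Macrophage markers, with 8 of 8 below 0, summed to 657 to 746 FPKM and to 561 to 701 FPKM, which overlap. Of other lists, 5 of 8 luminal epithelial, 6 of 7 endothelial, 6 of 7 adipocyte and 1 of 2 T cell markers lay below 0. For skeletal muscle it was 6 of 6 and for bone and cartilage 2 of 2, and 0 markers of these lists were called. Fewer cells of a type and less RNA per cell cannot be told apart in whole tumors, and the part of these cells in the lower Mmp14 and Timp3 was not tested. In the cell lines MMP14 was at 149 and 91.3 FPKM in the TRIM11-KD lines beside a Control of 190.2. It was at 115 and 59.7 FPKM in the KDM5C-KD lines and at 163 and 78.5 in the DKD lines. TIMP3 was at 127 and 88.5 FPKM in the TRIM11-KD lines and at 47.6 and 41.8 in the KDM5C-KD lines, beside a Control of 170.2. In the DKD lines TIMP3 was at 47.7 and 102 FPKM. In TRIM11-KD neither gene met the 1.5-fold rule in both lines. Lines with and without a TRIM11 guide were all below the 1 Control library. A relation to the tumor values was not tested.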

How the data were processed

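FPKM were the deposited unit in both tables. According to the study's methods, the authors made non-directional poly(A) libraries, sequenced paired reads, trimmed them with Cutadapt, aligned them with HISAT2 to hg19 or mm10 and computed FPKM with Cufflinks; the submitters' processing notes also name Bowtie 0.12.2. Members and lists were chosen with earlier results of these data known. Rows were joined by symbol (25 human symbols turned into dates by a spreadsheet were dropped). Tests used limma 3.58.1 (R 4.3.3, eBayes with trend) on log2(FPKM + 1) for 12636 human and 17328 mouse genes whose mean FPKM reached 0.5, after checks on simulated data; fold changes on this scale understate those of low genes. A call required a 1.5-fold ratio of mean FPKM and p under 0.05, with Benjamini-Hochberg adjusted p beside it. Against the single Control both lines had to pass 1.5-fold, without a pseudocount or a test.

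Genes are named by rule: all TIMPs, MMP and ADAMTS genes with a mean of at least 5 FPKM, called members, and up to 4 called genes per pathway list with a mean of at least 5 FPKM; others were named after their values were seen and are said to be so or appear as examples of ranges. Gene positions are from GENCODE (GRCh37 and mm10), whose exon lengths gave the tumor reads. Alternatives covered the pseudocount, filter, scaling, variance model, fold, replicate block and left-out libraries. No source used here tells whether each tumor came from a different animal, or whether libraries of a group were prepared together. The lines of a knockdown carry different guides, and p-values measure the spread between these samples. A called gene of a pathway list is not reported here. Strain numbers in the labels run from 634 to 639 over the 6 tumors.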

Additional observations from a re-analysis of the deposited data

Results flagged for a closer look

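The change from KDM5C-KD to DKD was set against the change from Control to TRIM11-KD in limma over the 7 libraries. The Control has 1 library, so the spread of this contrast comes from the 3 knockdown groups and the Control is assumed to vary like them. The DKD lines both carry KDM5C guide 2 while the KDM5C-KD lines carry guides 1 and 2, so the first change also mixes KDM5C guides. Of 19 members 1, MMP24, had an unadjusted p under 0.05, beside 5.49% of all genes, and 0 had an adjusted p under 0.05, beside 2 genes. For MMP24 the first change minus the second was -1.02 on the log2 scale (SE 0.42, unadjusted p = 0.0487, limma adjusted p = 0.879 over 12636 genes). Both TRIM11-KD lines lay above the Control, while the DKD lines, at 9.05 and 9.64 FPKM, lay between the KDM5C-KD lines. TIMP3 stood out by direction alone and did not pass the test, at 1.31 (SE 0.57, unadjusted p = 0.0599, limma adjusted p = 0.879). Both TRIM11-KD lines lay below the Control, and both DKD lines lay above both KDM5C-KD lines, DKD1 at 47.68 FPKM by a margin of under 1 FPKM.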

How the results depend on the processing

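Counts of members per comparison and direction stayed within 1.5 times in 140 of 198 recomputations. Of 1442 recomputed differences of named genes 1277 were rated the same, 98 weaker, 23 stronger and 13 moved, and 31 changed sign. Those rated weaker include lost calls. Depth is unknown in the cell lines and groups of 2 or 3 limit every test. Counts against the Control have no test, and the 3 sets share it. Shares of all genes called in the other settings are not given beside the counts below. These counts can therefore not be read as particular to the members.

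With genes of any level tested, the tumors gave 1 member higher (Timp4) and 4 lower. KDM5C-KD against DKD gave 1 lower, KDM5C-KD against TRIM11-KD 0 higher and 1 lower, and the lines numbered 2 gave 5 lower, MMP3 and MMP7 among them. Against the Control this gave 4 higher and 4 lower in TRIM11-KD, 9 lower in KDM5C-KD and 5 higher in DKD. A fold of 2 left 0 lower in the tumors, 0 higher and 1 lower (TIMP3) for KDM5C-KD against TRIM11-KD, 0 lower for TRIM11-KD against DKD and 0 higher in the lines numbered 2. Against the Control a fold of 2 left 1 higher and 0 lower in TRIM11-KD, 1 higher and 2 lower in KDM5C-KD and 1 higher in DKD. The mean of both lines gave 4 higher and 4 lower in TRIM11-KD and 5 higher in KDM5C-KD. A pseudocount of 1 gave 1 higher in TRIM11-KD, and limma with the Control gave 1 higher and 0 lower in TRIM11-KD and 1 higher in KDM5C-KD. The tumors gave 4 lower with voom on recovered reads. ADAMTS12 in the lines numbered 2 changed sign with median-ratio scaling, to -0.000253.

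The replicate number of the labels was tried as a block. It left the tumor counts at 0 higher and 2 lower, where same-numbered tumors did not deviate together (r from -0.33 to 0.038). In the cell lines the block gave 2 lower (ADAMTS14, MMP1) for KDM5C-KD against DKD, 4 lower for KDM5C-KD against TRIM11-KD, and 2 higher and 2 lower for TRIM11-KD against DKD. Shares of all genes called with the block are not given beside these counts. The number 2 minus number 1 differences correlated over genes at 0.37 between TRIM11-KD and DKD, whose same-numbered lines share a TRIM11 guide. They correlated at 0.27 between KDM5C-KD and DKD and at 0.088 between TRIM11-KD and KDM5C-KD. The last 2 pairs share only a number, apart from KDM5C guide 2 in KDM5C-KD2 and DKD2.

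With single libraries left out, counts ranged as follows. Tumors gave 0 higher and 1 to 5 lower, the 5 without Trim11+/- tumor 1. KDM5C-KD against DKD gave 0 to 3 higher and 0 to 2 lower, KDM5C-KD against TRIM11-KD 0 to 3 higher and 0 to 3 lower, and TRIM11-KD against DKD 0 to 2 higher and 0 to 2 lower. The lines numbered 2 gave 1 higher and 3 to 4 lower. Against the Control the ranges were 3 to 5 higher and 1 to 5 lower in TRIM11-KD, 4 higher and 4 to 7 lower in KDM5C-KD, and 5 to 6 higher and 3 to 6 lower in DKD. Uncalled log2 differences that crossed 0 were those of Mmp3 (-0.63 to 0.025), Timp1 (-0.46 to 0.096) and Timp2 (-0.24 to 0.017) in the tumors. For KDM5C-KD against DKD they were ADAMTS1 (-0.42 to 0.73), ADAMTS15 (-0.74 to 0.17), MMP1 (-2.96 to 1.33), MMP14 (-0.97 to 0.076), MMP15 (-0.23 to 0.58), MMP24 (-0.21 to 0.58) and TIMP4 (-0.30 to 0.55). For KDM5C-KD against TRIM11-KD they were MMP1 (-3.29 to 1.42), MMP15 (-0.13 to 0.84), TIMP1 (-0.69 to 0.28) and TIMP4 (-0.17 to 0.67), and for TRIM11-KD against DKD MMP1 (-2.23 to 2.48), MMP14 (-0.48 to 0.57) and MMP15 (-0.66 to 0.31). In the lines numbered 2 ADAMTS12 ranged from -0.039 to 0.026 and TIMP3 from -0.35 to 0.45. Leaving out a line also unbalances the numbers 1 and 2 between groups; whether this set the changes was not tested.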
